A study of Macaca mulatta with 9 samples.

Results

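The 10 genes described here encode parts of the pathway that shows peptides on MHC class I: B2M, TAP1, TAP2, TAPBP, NLRC5, PSMB8, PSMB9, PSMB10, PSME1 and PSME2. They are a list chosen by their roles, with earlier results of these data known, and all 10 are among the 24371 genes of the deposited table. The samples were whole blood from 9 rhesus macaques (Macaca mulatta) of WT genotype, each giving 1 RNA library, with 3 animals assigned at random to each of 3 groups. ABPC_EV animals were injected with vesicles of ABPC, the antler blastema progenitor cells named in the study's title. FBMSC_EV animals were injected with vesicles of FBMSC, a name that the labels do not spell out. PBS animals were injected with PBS, the vehicle, and their sample descriptions call them Old. Extracellular vesicles (EV) are membrane-bound particles that cells release. The labels give no dose, no time after injection, no age and no blood cell counts.

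MHC class I molecules carry short peptides from inside the cell to its surface, where CD8+ T cells read them. The proteasome cuts proteins into these peptides, the TAP transporter moves them into the endoplasmic reticulum, and tapasin holds an empty class I molecule at the transporter until a peptide is bound. Interferon gamma induces most of these genes, in part through IRF1 and NLRC5, and blood leukocytes express them at rest. In leukocytes the immunoproteasome, with 3 exchanged catalytic subunits, stands beside or in place of the standard form.

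The groups differed in how much of each library was globin RNA, and this bears on every level below. Globin transcripts held 76.2 ± 5.82% of the per-million total in ABPC_EV blood, 84.2 ± 3.01% in FBMSC_EV blood and 89.7 ± 2.57% in PBS blood (SD, n = 3 each). Reads outside the erythroid marker genes, recovered from the table, numbered, in units of 1000000, from 6.52 to 7.74 in ABPC_EV libraries, from 5.08 to 6.47 in FBMSC_EV libraries and from 2.78 to 4.47 in PBS libraries. The deposited values share 1 fixed total per library, so a lower globin share raises the listed value of the other genes. Each result is therefore given on 2 scales: as deposited, and after median-ratio scaling, which divides each library by the median, over 13350 genes, of its value relative to the geometric mean of all libraries. The divisors averaged 2.04 ± 0.499 for ABPC_EV, 1.04 ± 0.134 for FBMSC_EV and 0.516 ± 0.220 for PBS (SD, n = 3 each). In bulk blood, fewer cells of a type and less RNA per cell cannot be told apart. The 4 genes of the list for all nucleated blood cells, among them PTPRC, the leukocyte antigen CD45, were found in every group, and no blood cell marker was at 0 throughout a group.

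B2M, the small light chain shared by all class I molecules, stood far above the other 9 genes in every library. The deposited values behave like TPM, which divides by gene length, so levels are set side by side between genes on that scale. B2M averaged 1938 ± 380 in ABPC_EV blood, 1774 ± 390 in FBMSC_EV blood and 871 ± 208 in PBS blood (SD, n = 3 each). PSMB8, the next gene in all 3 groups, averaged 86.0 ± 45.0 in ABPC_EV blood, 61.9 ± 19.5 in FBMSC_EV blood and 27.3 ± 7.90 in PBS blood. TAP1 and then NLRC5 followed in the order of group means, and PSMB8 was above TAP1 in 9 of 9 libraries. The lowest mean was that of PSMB10 in ABPC_EV blood (32.4) and in PBS blood (8.02), and that of TAPBP in FBMSC_EV blood (19.97). Between neighbours in this order, B2M was the 1 gene whose range in a group did not overlap the next gene's range in that group. Further apart in the order, ranges could separate: in PBS blood PSMB8 was at 19.2 to 35.04 and PSMB10 at 5.39 to 10.7. Recovered reads behind a value ran from 111, for PSMB10 in PBS replicate 1, to 57257, for B2M in FBMSC_EV replicate 1.

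The genes of the loading step had the following values as deposited. B2M was at 1652, 1792 and 2370 per 1000000 in ABPC_EV replicates 1 to 3, at 2217, 1625 and 1481 in FBMSC_EV replicates 1 to 3, and at 635, 953 and 1025 in PBS replicates 1 to 3. TAP1, a subunit of the peptide transporter, was at 40.6, 96.3 and 67.4 in ABPC_EV libraries, at 37.6, 52.4 and 54.7 in FBMSC_EV libraries, and at 13.3, 17.8 and 19.9 in PBS libraries. For both genes the PBS libraries were the lowest and overlapped neither EV group, while the EV groups overlapped each other. Of all 10596 genes tested, 85.4% were higher without overlap in ABPC_EV than in PBS blood, and 50.9% in FBMSC_EV than in PBS blood. TAP2, the other transporter subunit, was at 25.1, 72.8 and 41.4 in ABPC_EV libraries, at 23.9, 38.7 and 34.9 in FBMSC_EV libraries, and at 7.68, 11.8 and 13.1 in PBS libraries. TAPBP, which encodes tapasin, was at 18.3, 40.2 and 44.2 in ABPC_EV libraries, at 20.9, 19.2 and 19.8 in FBMSC_EV libraries, and at 6.95, 7.65 and 11.53 in PBS libraries. ABPC_EV replicate 1 was the lowest of its group for all 10 genes, and for TAPBP it lay below every FBMSC_EV library.

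NLRC5, which activates transcription of class I genes, was at 29.3, 63.5 and 72.6 per 1000000 in ABPC_EV libraries, at 34.9, 42.6 and 37.3 in FBMSC_EV libraries, and at 11.8, 12.2 and 19.5 in PBS libraries. Its ABPC_EV libraries lay on both sides of the FBMSC_EV libraries, and every PBS library was below both groups. PBS blood was below ABPC_EV blood in this way for 85.4% of all genes tested, and below FBMSC_EV blood for 50.9%.

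PSMB8, PSMB9 and PSMB10 encode the 3 catalytic subunits that turn a proteasome into an immunoproteasome. PSMB8 was at 48.2, 136 and 74.2 in ABPC_EV libraries, at 39.4, 74.1 and 72.0 in FBMSC_EV libraries, and at 19.2, 27.5 and 35.04 in PBS libraries. PSMB9 was at 21.0, 61.8 and 40.5 in ABPC_EV libraries, at 23.0, 31.8 and 29.7 in FBMSC_EV libraries, and at 9.999, 13.6 and 12.9 in PBS libraries. PSMB10 was at 14.5, 38.5 and 44.1 in ABPC_EV libraries, at 15.9, 25.2 and 25.3 in FBMSC_EV libraries, and at 5.39, 7.95 and 10.7 in PBS libraries. All 3 subunits had the PBS libraries lowest with no overlap, beside 85.4% of all genes tested against ABPC_EV blood and 50.9% against FBMSC_EV blood. ABPC_EV replicate 2 was the highest library for PSMB8 and PSMB9.

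PSME1 and PSME2 encode the alpha and beta subunits of PA28, the ring that opens the proteasome's entrance. PSME1 was at 29.1, 51.1 and 52.9 in ABPC_EV libraries, at 17.4, 33.8 and 26.4 in FBMSC_EV libraries, and at 9.02, 12.3 and 13.2 in PBS libraries. PSME2 was at 27.5, 59.0 and 57.6 in ABPC_EV libraries, at 24.8, 44.6 and 41.1 in FBMSC_EV libraries, and at 9.85, 9.07 and 14.9 in PBS libraries. Both genes again had the PBS libraries lowest, with no overlap with either EV group, beside the same 85.4% and 50.9% of all genes tested.

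**Figure D1:**
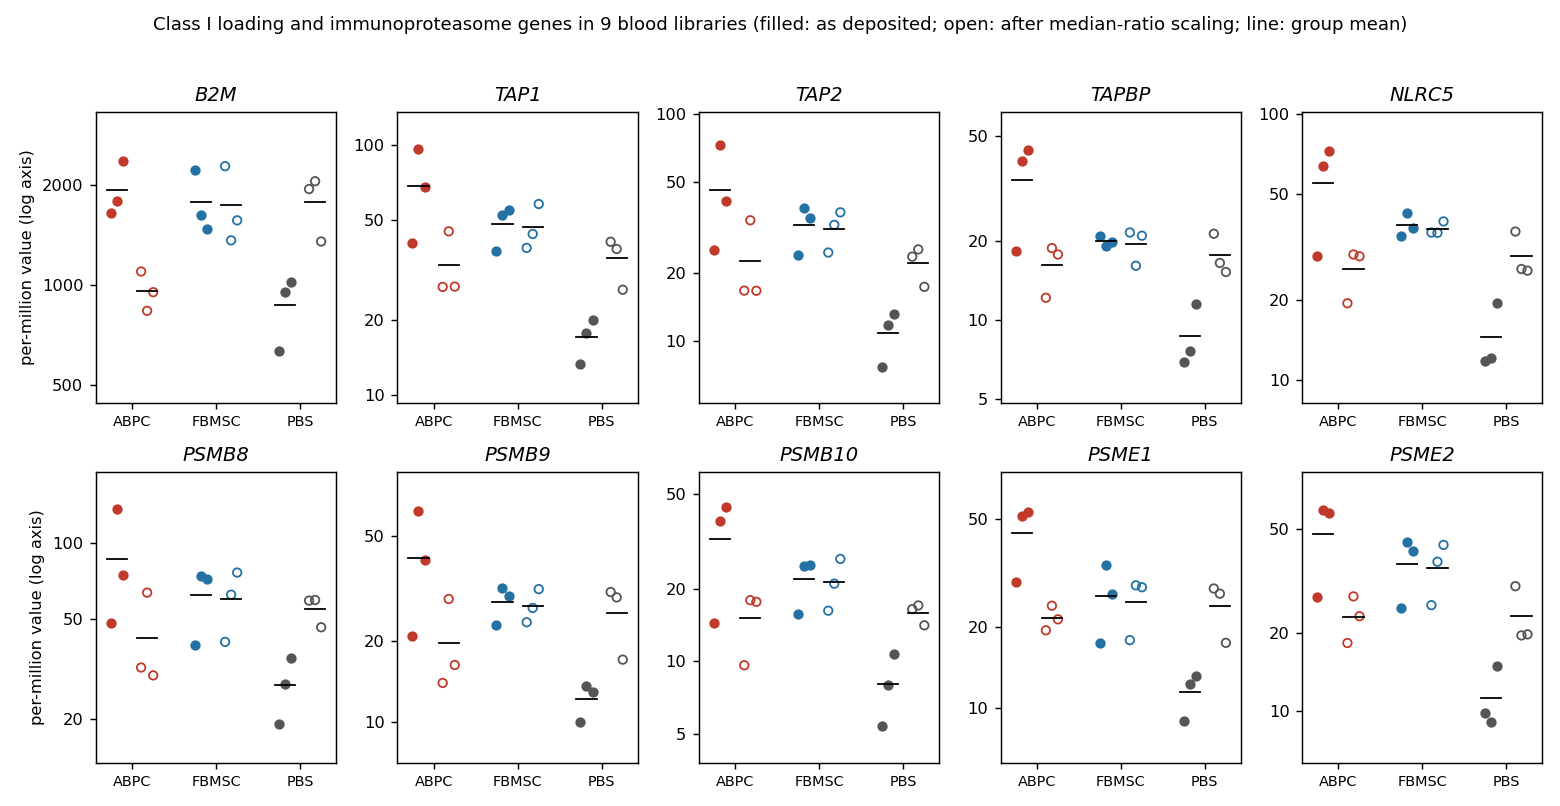
Per-million values (log axis) of the 10 genes in each library of ABPC_EV, FBMSC_EV and PBS blood, as deposited (filled points) and after median-ratio scaling (open points), with lines at the group means. As deposited, the PBS libraries are lowest for all 10 genes. They lie below ABPC_EV without overlap for 85.4% of all genes tested, and below FBMSC_EV for 50.9%. After scaling the groups overlap, except that the 3 ABPC_EV libraries are lowest for B2M, at 838 to 1100, and lie below the FBMSC_EV libraries for NLRC5. On that scale ABPC_EV lies below PBS without overlap for 7.51% of all genes, and below FBMSC_EV for 6.8%.

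The first comparison asks how blood of animals given ABPC vesicles differed from blood of animals given the vehicle. Fold changes are limma estimates on log2(value + 1), a scale that understates the change of low genes. As deposited, all 10 genes rose in ABPC_EV blood, by limma with Benjamini-Hochberg adjusted p-values under 0.05, as did 90.9% of all 10596 genes tested. For 10 of the 10, every ABPC_EV library was above every PBS library, as for 85.4% of all genes. The median log2 fold change was 1.79 for the 10 genes and 1.41 for all genes, a median that takes in the low genes whose change this scale understates. As deposited, 9 of the 10 were above the median of all genes, and after median-ratio scaling 0 were. The counts called and without overlap are close to the background, so the calls say little about these genes in particular. All calls were lost after median-ratio scaling and when the erythroid marker genes were taken out before the total was set again, where 0 genes of all tested passed.

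PSME2 had the highest log2 fold change of the 10 as deposited, 1.95 (SE 0.44, limma adjusted p = 0.00055), a mean of 48.0 in ABPC_EV blood against 11.3 in PBS blood. Next were TAP2 at 1.90, TAP1 at 1.87, PSME1 at 1.83, TAPBP and NLRC5 at 1.79 each and PSMB10 also at 1.79. PSMB9 rose by 1.56 and PSMB8 by 1.53. B2M had the lowest value, 1.17 (SE 0.38, limma adjusted p = 0.0062), and was the 1 gene of the 10 below the median of all genes. Of all genes tested, 30.1% had a lower log2 fold change than B2M and 91.8% a lower one than PSME2.

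After median-ratio scaling, 0 of the 10 genes passed limma's adjusted threshold between ABPC_EV and PBS blood, and 0 of all genes did, here and by limma-voom on the recovered reads in all 3 comparisons. At an unadjusted p under 0.05, 1 of the 10 was lower and 0 were higher, against 7.12% and 3.08% of all genes. B2M was that gene. Scaled B2M values were 1100, 838 and 953 in ABPC_EV replicates 1 to 3, and 1946, 2055 and 1354 in PBS replicates 1 to 3. The highest ABPC_EV library was below the lowest PBS library. The log2 fold change was -0.87 (SE 0.36, limma adjusted p = 0.436), and a mean of 964 ± 131 in ABPC_EV blood stood against 1785 ± 377 in PBS blood (SD, n = 3 each). Of all genes tested, 7.51% were lower and 6.45% higher in ABPC_EV blood with no overlap of libraries, and 5.29% had a lower log2 fold change than B2M.

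Most markers of red cells, B cells and neutrophils also had values below 0 on this scale. Summed, the 10 erythroid markers held 71.2 to 82.8% of the per-million total in ABPC_EV libraries and 88.5 to 93.0% in PBS libraries. After scaling, the log2 fold changes of all 10 were below 0, with a median of -2.19. At an unadjusted p under 0.05 by limma, 10 of the 10 were lower, beside 7.12% of all genes. Without overlap of libraries 9 were lower, beside 7.51% of all genes, and 0 passed the adjusted threshold. B cell markers were below 0 for 7 of 8 tested genes (median -0.58), with a summed scaled level of 80.5 to 239.6 in ABPC_EV libraries against 177 to 343 in PBS libraries. Neutrophil markers were below 0 for 5 of 6 tested genes (median -0.44), with a summed scaled level of 252 to 735 in ABPC_EV libraries against 286 to 768 in PBS libraries. NK and cytotoxic markers were above 0 for 8 of 8 (median 0.68) and T cell markers for 7 of 8 (median 0.43). The part of any of these cell types in the result, red cells included, was not tested. With the erythroid genes taken out and the total set again, the log2 fold change of B2M between ABPC_EV and PBS blood was -0.09, and the other 9 genes lay between 0.32 and 0.78. That step only gives each library a new total, so it does not test the part of red cells.

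The other 9 genes were also below the median of all genes after scaling, and their libraries overlapped between the groups. PSMB8 was at 32.1, 63.5 and 29.9 in ABPC_EV libraries and at 59.0, 59.3 and 46.3 in PBS libraries, a log2 fold change of -0.46 (SE 0.35, limma adjusted p = 0.701). PSMB9 was at -0.39 (SE 0.32, limma adjusted p = 0.724). Of all genes tested, 14.1% had a lower log2 fold change than PSMB8 and 17.0% a lower one than PSMB9. The remaining 7 genes lay between -0.17 for NLRC5 and 0.00 for PSME2. For TAP2 the log2 fold change was -0.04 although its mean was 22.5 in ABPC_EV blood and 22.1 in PBS blood, because ABPC_EV replicate 2 held 34.0 beside 16.7 in each of the other 2 ABPC_EV libraries. Over the 10 genes, 9 were below 0, with a median of -0.12, where 49.8% of all genes were below 0 and their median was 0.00. This count was 4 of 10 under upper-quartile scaling, and it turned on single libraries: it was 4 of 10 without ABPC_EV replicate 1, 6 of 10 without PBS replicate 1, and 10 of 10 without ABPC_EV replicate 2 or without PBS replicate 3.

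**Figure D2:**
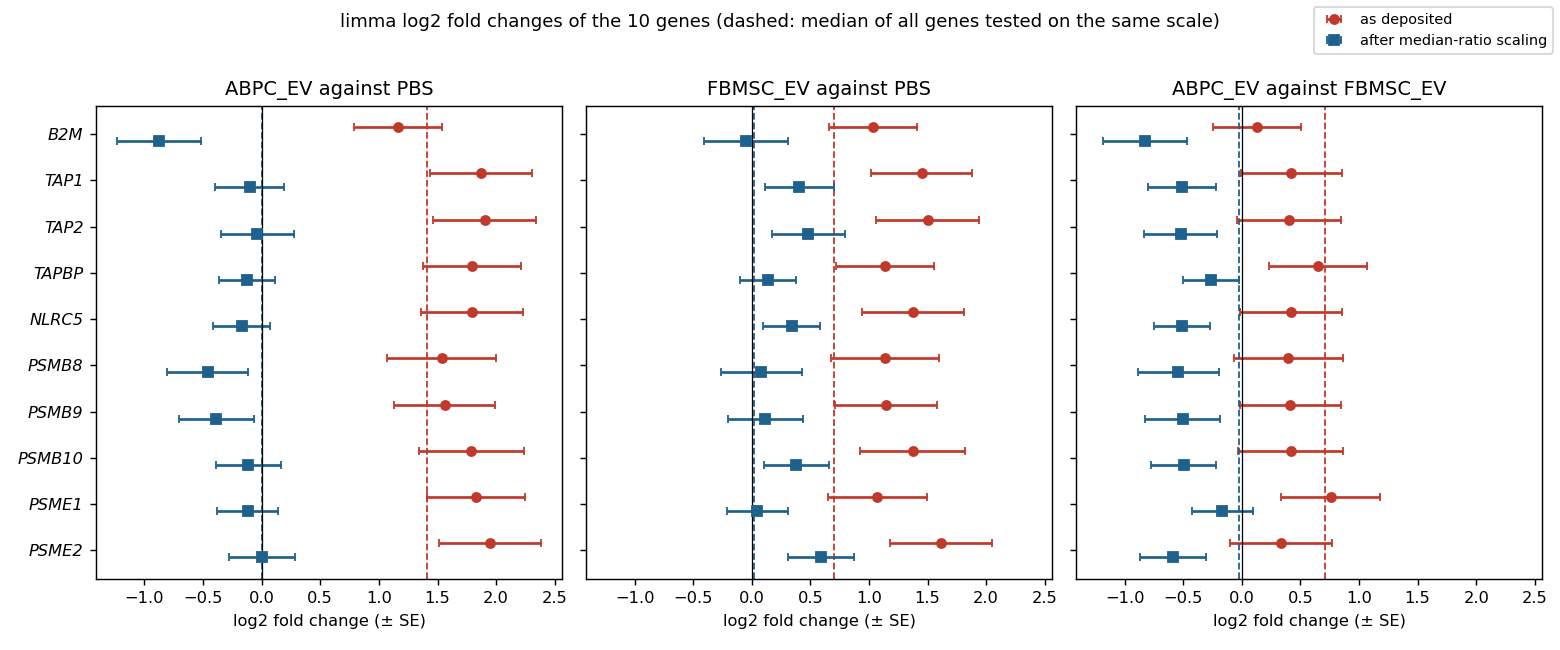
limma log2 fold changes (points, with SE as bars) of the 10 genes in the 3 comparisons, as deposited (circles) and after median-ratio scaling (squares), with dashed lines at the median of all genes tested on each scale. Against PBS, 9 of 10 genes in ABPC_EV blood and 10 of 10 in FBMSC_EV blood lie right of the dashed line as deposited. After scaling, 0 of 10 in ABPC_EV blood and 9 of 10 in FBMSC_EV blood lie right of it. B2M has the lowest value of the 10 on both scales in all 3 comparisons.

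The second comparison asks the same for FBMSC vesicles, against the same PBS libraries, so it is not independent of the first. As deposited, 0 of the 10 genes passed limma's adjusted threshold in FBMSC_EV blood, where 0.255% of all genes rose. At an unadjusted p under 0.05, 10 of the 10 were higher, against 43.6% of all genes, and their adjusted p-values by limma lay between 0.0815 and 0.0931. For 10 of the 10, every FBMSC_EV library was above every PBS library, as for 50.9% of all genes. The median log2 fold change was 1.26 for the 10 genes and 0.70 for all genes, again with the low genes included.

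PSME2 again had the highest log2 fold change as deposited, 1.61 (SE 0.44, limma adjusted p = 0.0815), with a mean of 36.9 in FBMSC_EV blood against 11.3 in PBS blood. TAP2 and TAP1 followed, at 1.4998 and 1.45, and NLRC5 and PSMB10 at 1.37 each. PSMB9, TAPBP and PSMB8 were at 1.14 each, PSME1 at 1.07 and B2M at 1.03. Of all genes, low genes included, 85.3% had a lower log2 fold change than B2M and 99.1% a lower one than PSME2. After median-ratio scaling these shares were 38.9% for B2M and 96.7% for PSME2. Single libraries decided the count, for all genes as well as for the 10: in the main fit 28 of all genes passed. Without PBS replicate 3, 9 of the 10 passed, PSMB9 being the exception, beside 4526 of all genes. TAP1, TAP2, PSMB10 and PSME2 passed without ABPC_EV replicate 2, beside 460 of all genes. That library is in neither group but adds to the shared estimate of spread. Of the 10, PSME2 alone passed without ABPC_EV replicate 1, beside 119 of all genes. With the 6 libraries of the 2 groups alone, 5 of the 10 passed, beside 1063 of all genes.

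After median-ratio scaling, 0 of the 10 genes and 0 of all genes passed the adjusted threshold between FBMSC_EV and PBS blood, and the libraries of the 2 groups overlapped for all 10 genes, where 4.96% of all genes were higher and 4.71% lower without overlap. At an unadjusted p under 0.05, 0 of the 10 passed, against 2.24% of all genes higher and 2.6% lower. Of the 10, 9 had a log2 fold change above 0, where 53% of all genes did; the median was 0.24 for the 10 genes and 0.02 for all genes. PSME2 was at 25.5, 37.5 and 43.5 in FBMSC_EV libraries and at 30.2, 19.5 and 19.7 in PBS libraries, a log2 fold change of 0.59 (SE 0.28, limma adjusted p = 0.997). TAP2 was at 0.48, TAP1 at 0.41, PSMB10 at 0.38 and NLRC5 at 0.34, each with an adjusted p of 0.997 by limma. B2M was at -0.05, with libraries at 2280, 1364 and 1567 in FBMSC_EV blood and at 1946, 2055 and 1354 in PBS blood. Without PBS replicate 3, the number above 0 was 6 of 10. Markers of several cell types also stood away from 0 in the same comparison, and their part in the result was not tested. NK and cytotoxic markers were above 0 for 8 of 8 genes (median 0.73), with a summed scaled level of 256 to 649 in FBMSC_EV libraries against 126 to 367 in PBS libraries. Monocyte markers were above 0 for 6 of 7 tested genes (median 0.43), at 281 to 984 in FBMSC_EV libraries against 274 to 447 in PBS libraries. B cell markers were below 0 for 8 of 8 (median -0.84), platelet markers for 6 of 6 (median -0.47) and erythroid markers for 10 of 10 (median -1.06). None of these lists had a gene past the adjusted threshold.

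The third comparison sets the 2 kinds of vesicles against each other. As deposited, 0 of the 10 genes passed the adjusted threshold between ABPC_EV and FBMSC_EV blood, where 0.585% of all genes were called higher, and no gene of the 10 had libraries without overlap, where 50.5% of all genes were higher without overlap. At an unadjusted p under 0.05 the count was 0 of 10, against 48% of all genes higher. The median log2 fold change was 0.42 for the 10 genes and 0.71 for all genes, and PSME1, at 0.76 (SE 0.42, limma adjusted p = 0.139), was the 1 gene above that median. TAPBP was at 0.65 and B2M at 0.13, with the other 7 genes between 0.34 and 0.42. Without ABPC_EV replicate 1, TAPBP alone of the 10 passed the threshold (1.04, limma adjusted p = 0.0424). In that fit 4863 of all genes passed, against 68 in the main fit, so the call says little about TAPBP in particular.

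After median-ratio scaling, all 10 genes had a log2 fold change below 0 between ABPC_EV and FBMSC_EV blood, where 52.8% of all genes did; the median was -0.51 for the 10 genes and -0.02 for all genes. None passed limma's adjusted threshold, and 0 of all genes did. At an unadjusted p under 0.05, 1 of the 10, B2M, was lower and 0 were higher, against 3.97% and 1.4% of all genes. All 10 were also below 0 in each fit that left out 1 ABPC_EV or FBMSC_EV library. Leaving out a PBS library cannot change these log2 fold changes. With erythroid genes taken out and the total set again, 8 of 10 were below 0 (median -0.17). B2M was at 1100, 838 and 953 in ABPC_EV libraries and at 2280, 1364 and 1567 in FBMSC_EV libraries, a log2 fold change of -0.82 (SE 0.36, limma adjusted p = 0.924). NLRC5 was at 19.5, 29.7 and 29.2 in ABPC_EV libraries and at 35.9, 35.8 and 39.5 in FBMSC_EV libraries, a log2 fold change of -0.51 (SE 0.24, limma adjusted p = 0.924). For both genes every ABPC_EV library lay below every FBMSC_EV library, as in 6.8% of all genes; 4.23% were higher without overlap.

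PSME2 was at 18.3, 27.6 and 23.2 in ABPC_EV libraries and at 25.5, 37.5 and 43.5 in FBMSC_EV libraries, a log2 fold change of -0.59 (SE 0.28, limma adjusted p = 0.924). PSMB8, TAP2, TAP1, PSMB9 and PSMB10 lay between -0.54 and -0.50. TAPBP was at -0.26 and PSME1 at -0.17. ABPC_EV replicate 2 was the highest ABPC_EV library after scaling for 9 of the 10 genes, all but B2M, and it was within the FBMSC_EV range for 8 of them. Without it the median over the 10 genes was -0.73. The erythroid markers held 71.2 to 82.8% of the total in ABPC_EV libraries and 82.8 to 88.0% in FBMSC_EV libraries; after scaling, all 10 had a log2 fold change below 0, with a median of -1.06. Monocyte markers, of which 7 of 8 were tested, were also all below 0, with a median of -0.65 and a summed scaled level of 249 to 327 in ABPC_EV libraries against 281 to 984 in FBMSC_EV libraries. Neutrophil markers were below 0 for 5 of 6 tested genes (median -0.26). B cell markers were above 0 for 8 of 8 (median 0.42), T cell markers for 7 of 8 (median 0.41) and platelet markers for 6 of 6 (median 0.51). Their part in the result was not tested.

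Ratios of 2 transcripts within a library do not depend on the scale. Across 8 ratios and 3 comparisons (24 exact two-sided permutation tests), the lowest p that 3 libraries against 3 can give is 0.1, which after Benjamini-Hochberg adjustment was 0.48, so no ratio could pass. PSMB8, PSMB9 and PSMB10 replace PSMB5, PSMB6 and PSMB7 of the standard proteasome. PSMB8 over PSMB5 was 5.22, 11.02 and 6.68 in ABPC_EV replicates 1 to 3, 5.20, 11.01 and 10.5 in FBMSC_EV replicates 1 to 3, and 9.996, 8.80 and 6.22 in PBS replicates 1 to 3. The PSMB8 transcript was thus the higher one in 9 of 9 libraries, and the groups overlapped. PSMB9 over PSMB6 averaged 1.81 ± 1.02 in ABPC_EV blood, 1.49 ± 0.380 in FBMSC_EV blood and 1.05 ± 0.364 in PBS blood (SD, n = 3 each). PSMB10 over PSMB7 averaged 1.82 ± 0.715 in ABPC_EV blood, 2.09 ± 0.849 in FBMSC_EV blood and 1.39 ± 0.286 in PBS blood. Both ratios overlapped between all groups (exact permutation p between 0.2 and 0.9).

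PSME1 over PSME2, the PA28 subunits, was lower in each FBMSC_EV library than in any other library. The ratio was 0.699, 0.757 and 0.643 in FBMSC_EV libraries, against 0.916, 1.35 and 0.884 in PBS libraries (log2 difference -0.56, exact permutation p = 0.1, adjusted p = 0.48). In ABPC_EV libraries it was 1.06, 0.866 and 0.919, which is above FBMSC_EV (log2 difference 0.44, exact permutation p = 0.1, adjusted p = 0.48) and within the PBS range at 2 of 3 libraries.

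TAP1 and PSMB9 are neighbours, and in the RefSeq gene table of the assembly T2T-MMU8v2.0 their spans on chromosome 4 overlap. The ratio of TAP1 over PSMB9 was 1.94, 1.56 and 1.66 in ABPC_EV libraries against 1.33, 1.31 and 1.54 in PBS libraries (log2 difference 0.30, exact permutation p = 0.1, adjusted p = 0.48). In FBMSC_EV libraries it was 1.64, 1.65 and 1.84, also above every PBS library (log2 difference 0.29, exact permutation p = 0.1, adjusted p = 0.48). The labels do not say whether counting used strand, so it is unknown how reads were assigned where the 2 genes overlap, and the overlap was not checked in Mmul_10, the build of the deposited values.

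TAP1 over TAP2, the 2 subunits of the transporter, was 1.52 ± 0.172 in ABPC_EV blood, 1.4995 ± 0.127 in FBMSC_EV blood and 1.59 ± 0.129 in PBS blood (SD, n = 3 each), and overlapped between all groups. TAP1 over B2M was 0.0246, 0.0537 and 0.0284 in ABPC_EV libraries against 0.0210, 0.0186 and 0.0195 in PBS libraries, with no overlap (log2 difference 0.77, exact permutation p = 0.1, adjusted p = 0.48). In FBMSC_EV libraries it was 0.0170, 0.0322 and 0.0369, on both sides of the PBS libraries (exact permutation p = 0.4, adjusted p = 0.939). TAPBP over TAP1 averaged 0.507 ± 0.129 in ABPC_EV blood, 0.428 ± 0.111 in FBMSC_EV blood and 0.510 ± 0.0744 in PBS blood, and overlapped between all groups.

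**Figure D3:**
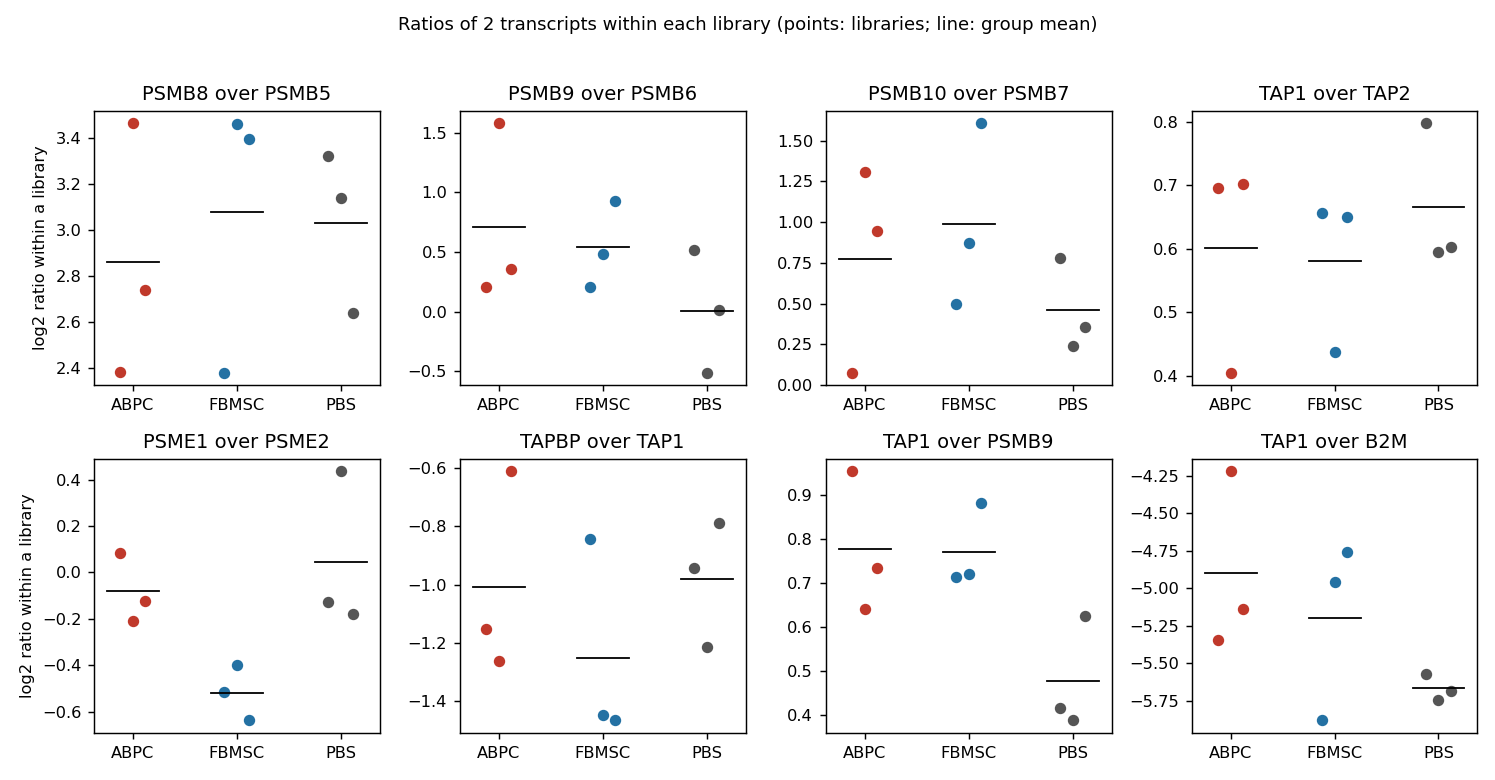
log2 ratios of 2 transcripts within each library, with points for libraries of ABPC_EV, FBMSC_EV and PBS blood and lines at the group means; each panel has its own axis, which does not start at 0. PSME1 over PSME2 is lowest in the 3 FBMSC_EV libraries, TAP1 over PSMB9 is lowest in the 3 PBS libraries, and the catalytic subunits over their standard counterparts overlap between groups.

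The 10 genes did not vary as 1 block between libraries. After scaling, the median Pearson correlation of a gene with the other 9 over the 9 libraries was 0.27 for B2M and between 0.60 and 0.79 for the other 9 genes, highest for TAP1. TAP1 and TAP2 had the highest correlation of any pair, 0.96. These values are descriptions over 9 libraries that share groups and a scale, and TAP1, TAP2, PSMB8 and PSMB9 lie next to each other on chromosome 4 in that RefSeq assembly, with 1 lncRNA gene between TAP1 and PSMB8. The 5 other tested genes most like the mean of the 10, by Pearson correlation over the 9 libraries, were MAX (0.92), IRF1 (0.92), WARS (0.92), MT2A (0.91) and CD274 (0.91). MAX encodes the binding partner of MYC, IRF1 an interferon-induced transcription factor of class I genes, WARS a tRNA synthetase, MT2A a metallothionein and CD274 the ligand PD-L1. For NLRC5 alone the 5 most alike were LOC114675357 (0.96), MT2A (0.93), DFFB (0.91), CD274 (0.90) and APOBEC3B (0.90). Both lists were picked as the highest correlations among all other genes tested, so they are descriptions without a test.

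The other genes of the class I pathway were taken from 6 lists of 55 names, of which 47 are in the table and 46 were tested. The heavy chain names MAMU-B and MAMU-I, the human HLA names and MR1 were not analysed here. As deposited, 43 of 46 rose in ABPC_EV blood against PBS blood, beside the 90.9% of all genes, and 0 of 46 passed in FBMSC_EV blood against PBS blood or in ABPC_EV blood against FBMSC_EV blood. At an unadjusted p under 0.05 by limma, 28 of 46 were higher in FBMSC_EV blood against PBS blood, beside 43.6% of all genes, and 18 of 46 in ABPC_EV blood against FBMSC_EV blood, beside 48% of all genes. After scaling, 0 of 46 passed in any comparison. Between ABPC_EV and PBS blood, 1 of 46 was lower at an unadjusted p under 0.05, beside 7.12% of all genes. By the same threshold, 1 of 46 was higher between FBMSC_EV and PBS blood, beside 2.24% of all genes, and between ABPC_EV and FBMSC_EV blood 4 of 46 were lower, beside 3.97%. Their median scaled log2 fold change was -0.06 between ABPC_EV and PBS blood, 0.04 between FBMSC_EV and PBS blood, and -0.15 between ABPC_EV and FBMSC_EV blood.

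Among the 6 genes of the standard proteasome and its assembly, 5 of 6 rose as deposited in ABPC_EV blood against PBS blood, where 90.9% of all genes did, PSMB6 being the exception (0.86, limma adjusted p = 0.0578). After scaling, PSMB6, a standard catalytic subunit, was at 12.1, 9.67 and 12.7 in ABPC_EV libraries, 20.4, 19.1 and 16.5 in FBMSC_EV libraries, and 21.5, 41.8 and 16.9 in PBS libraries. Every ABPC_EV library was below every other library, as it was for B2M (log2 fold change against PBS -1.05, SE 0.31, limma adjusted p = 0.255). PSMB7 was also lower without overlap in ABPC_EV than in PBS blood (-0.40, limma adjusted p = 0.561). POMP, the assembly chaperone, was lower without overlap in ABPC_EV than in FBMSC_EV blood (-0.65, limma adjusted p = 0.922). Without overlap after scaling, 3 of the 46 pathway genes were lower and 1 higher in ABPC_EV than in PBS blood. The shares of all genes were 7.51% and 6.45%. Between ABPC_EV and FBMSC_EV blood, 5 of 46 were lower and 0 higher, beside 6.8% and 4.23% of all genes. PSMB5 was at -0.26 against PBS. The proteasome activators PSME3 and PSME4 were at 0.05 and 0.10 against PBS.

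In the peptide-loading complex and its quality control, 6 of 6 genes rose as deposited in ABPC_EV blood against PBS blood, and in peptide trimming 7 of 7, where 90.9% of all genes rose. CANX, which encodes the chaperone calnexin, was at 2.01 as deposited and at 0.23 after scaling. UGGT1, which retains poorly folded glycoproteins, was at 1.96 as deposited and at 0.47 after scaling (limma adjusted p = 0.51). LNPEP and NPEPPS, peptide-trimming aminopeptidases, were at 1.97 and 1.80 as deposited, and at 0.24 and 0.03 after scaling. Against FBMSC_EV blood, ERAP2, which trims peptides in the endoplasmic reticulum, had the smallest p of the trimming list as deposited (1.20, limma adjusted p = 0.0737). TPP2, a cytosolic peptidase, came next at 0.93, and ERAP1, the partner of ERAP2 in the endoplasmic reticulum, was at 1.04 between FBMSC_EV and PBS blood (limma adjusted p = 0.0909).

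Of the 8 tested class I heavy chain and class I-like genes, 6 rose as deposited in ABPC_EV blood against PBS blood, beside 90.9% of all genes; MAMU-AG (0.55, limma adjusted p = 0.36) and HFE (0.55, limma adjusted p = 0.0647) did not pass. MAMU-E, a class I gene of the macaque, was at 617, 2320 and 989 per 1000000 in ABPC_EV libraries, 864, 919 and 527 in FBMSC_EV libraries, and 187, 426 and 376 in PBS libraries. ABPC_EV replicate 2 was the highest of all 9, and after scaling the 3 groups overlapped (-0.19 against PBS, limma adjusted p = 0.91). MAMU-F was at 2.32 as deposited and 0.43 after scaling against PBS, and MAMU-A3 at 1.55 and -0.47. These genes are near copies of each other and vary between animals, so how reads were shared out between them is unknown and their values are uncertain.

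Among regulators of class I genes, 13 of 13 tested genes rose as deposited in ABPC_EV blood against PBS blood, beside 90.9% of all genes, RFX5 (1.89) and NFYA (1.62) with the smallest p. RFX5 and NFYA bind class I promoters together with NLRC5. Against FBMSC_EV blood, RFX5 was at 1.17 and IRF8, a transcription factor of myeloid and B cells, at 1.01 as deposited (limma adjusted p = 0.0737 and 0.0745). STAT2, which carries interferon signals to the nucleus, was after scaling at 18.1, 23.8 and 16.9 in ABPC_EV libraries, 34.2, 29.2 and 43.9 in FBMSC_EV libraries, and 33.5, 13.8 and 18.3 in PBS libraries. The ABPC_EV libraries were below all FBMSC_EV libraries, as for 6.8% of all genes, and within the PBS range (against FBMSC_EV -0.83, SE 0.32, limma adjusted p = 0.922). Of the 6 genes of interferon gamma receptor signalling, 6 rose as deposited in ABPC_EV blood against PBS blood, again beside 90.9% of all genes. JAK2, a kinase of that receptor, was lower after scaling in ABPC_EV than in FBMSC_EV libraries without overlap (-0.60, limma adjusted p = 0.924), again beside 6.8% of all genes. JAK1 was at 0.005. IFNG, the gene of the cytokine itself, was at or below 7.60 per 1000000 in every library, and its groups overlapped.

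**Figure D4:**
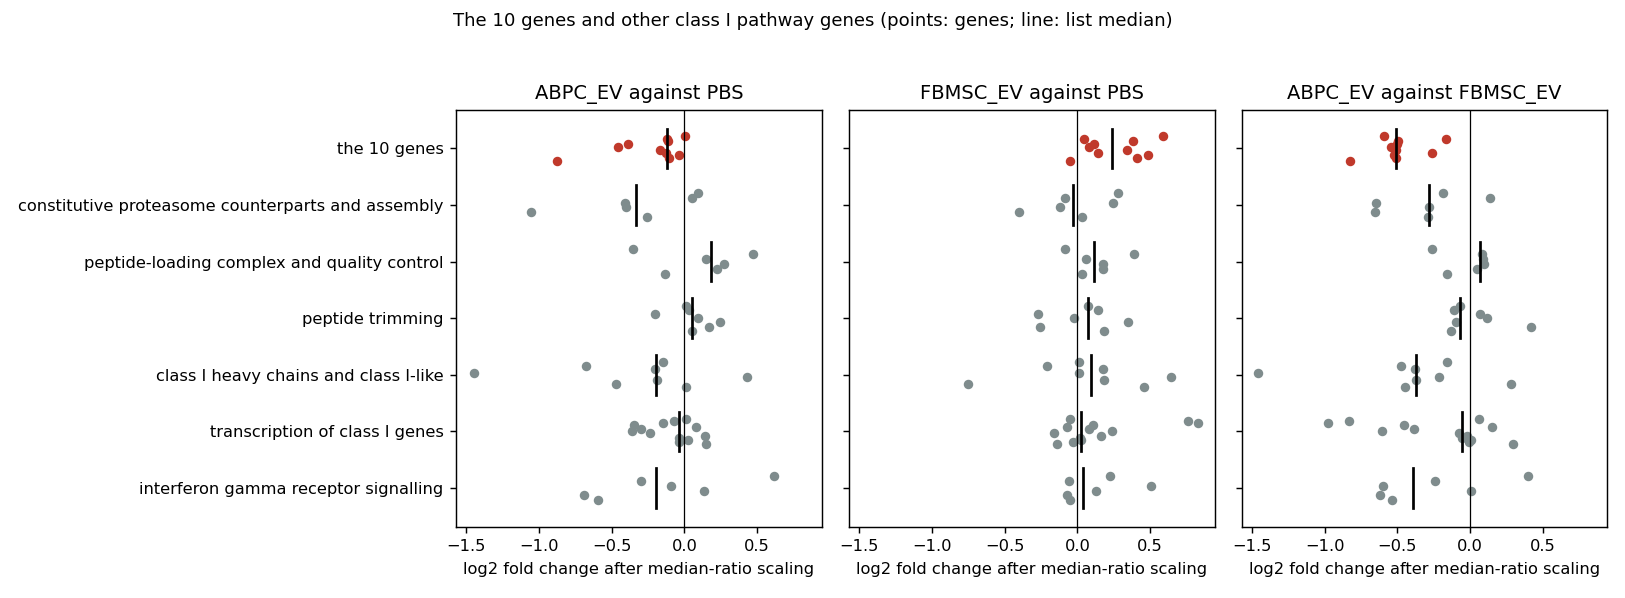
log2 fold changes after median-ratio scaling (points, 1 per gene) of the 10 genes and of the 6 lists of other class I pathway genes in the 3 comparisons, with lines at list medians. The median of the 10 genes is -0.12 between ABPC_EV and PBS blood, 0.24 between FBMSC_EV and PBS blood and -0.51 between ABPC_EV and FBMSC_EV blood; no gene shown passes the adjusted threshold.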

How the data were processed

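Total RNA was made into libraries with a NEBNext Ultra kit and read as paired Illumina ends, per the labels' protocols; the genome build was Mmul_10, per the submitters' processing notes. Neither an aligner nor a counter is given in the sources used here. Deposited values are log2 values of a per-million value plus 0.5 (lowest value -1), read from the values themselves, and they behave like TPM, so depth was unknown until whole reads were recovered: with a tolerance of 0.001, 21546 of 21551 genes above 0 in 2 or more libraries (99.98%) came out whole, and 0 of 40 perturbed genes did. Of the 9 columns, 0 belonged to no sample.

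Values were turned back to per-million values and fitted with limma 3.58.1 (R 4.3.3, trend) on log2(value + 1), which understates fold changes of low genes, for the 10596 genes that reached 1 per 1000000 in 3 samples or more, with all 9 samples in 1 fit and Benjamini-Hochberg adjustment over all genes tested (threshold 0.05). The same fit was run after median-ratio scaling. All 10 genes passed the filter on low values. Ratios were tested by exact permutation (scipy 1.17.1). On simulated data for ABPC_EV against PBS, over 10596 genes, 55, 161 and 185 of 200 changed genes were called at log2 changes of 1, 2 and 4 (200 in each run). In the same runs 8, 9 and 8 unchanged genes were called. Each gene was drawn independently from its scaled mean and spread, with no shift shared by a library. Alternatives were other pseudocounts, filters, scalings and samples, and limma-voom on the recovered reads, which was added after the data were seen. Each library is a different animal.

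The 10 genes and the lists were chosen with earlier results of these data known. Of the other pathway lists, the 2 genes with the smallest p per comparison as deposited and the genes at the bottom of a ratio were named, with the 5 genes most alike by correlation; MAMU-AG and HFE were chosen after their values were seen. A gene that this rule names is not reported here. All 10 symbols are in the RefSeq gene table (T2T-MMU8v2.0) and 8 in the table of gene IDs; coordinates are left out since that assembly is not Mmul_10. Sequences were not used here.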

Additional observations from a re-analysis of the deposited data

How the results depend on the processing

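Between ABPC_EV and PBS blood as deposited, 10 of 10 genes passed in every fit that left out 1 library (10 to 10), at other pseudocounts and filters, with only the 2 groups, without a trend and with the replicate block, and 0 passed with erythroid genes taken out or after median-ratio scaling. Of the other pathway genes, 43 passed as deposited and 0 after median-ratio scaling. Over all genes, 9639 passed as deposited, and 8728 to 9699 when 1 library was left out. At pseudocounts of 0.5 and 0.1, 9650 and 9594 of all genes passed, with only the 2 groups 9616, and without a trend 9524. Without a filter 11691 passed, where more genes were tested, and with a mean of at least 5 4022 passed, where fewer were tested. Between FBMSC_EV and PBS blood as deposited, 0 of 10 passed, 5 with a mean of at least 5, 5 with only the 2 groups (TAP1, TAP2, NLRC5, PSMB10 and PSME2 in both), and 0 to 9 when 1 library was left out; over all genes the count was 28, with 184 at a pseudocount of 0.1, 1 without a filter, 664 with a mean of at least 5, 1063 with only the 2 groups and 13 to 4526 when 1 library was left out, the highest without PBS replicate 3. Between ABPC_EV and FBMSC_EV blood as deposited, 0 to 1 of 10 passed when 1 library was left out, and 68 of all genes passed in the main design against 9 at a pseudocount of 0.1, 11 without a filter, 23 with only the 2 groups, 13 without a trend and 45 to 4863 when 1 library was left out, the highest without ABPC_EV replicate 1. After scaling, 0 of 10 passed in each of the alternatives run, limma-voom on recovered reads included, and over all genes the counts were 0 to 5, or 0 to 130 when 1 library was left out, the highest for ABPC_EV against PBS without PBS replicate 3.

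Median-ratio scaling reversed these log2 fold changes. For ABPC_EV against PBS, B2M became -0.87, TAP1 -0.10, TAP2 -0.038, TAPBP -0.12, NLRC5 -0.17, PSMB8 -0.46, PSMB9 -0.39, PSMB10 -0.11 and PSME1 -0.12. For FBMSC_EV against PBS, B2M became -0.050. For ABPC_EV against FBMSC_EV, B2M became -0.82, TAP1 -0.51, TAP2 -0.52, TAPBP -0.26, NLRC5 -0.51, PSMB8 -0.54, PSMB9 -0.51, PSMB10 -0.50, PSME1 -0.17 and PSME2 -0.59. With erythroid genes taken out, B2M was -0.086 for ABPC_EV against PBS; for ABPC_EV against FBMSC_EV, B2M was -0.46, TAP1 -0.16, TAP2 -0.18, NLRC5 -0.16, PSMB8 -0.19, PSMB9 -0.17, PSMB10 -0.16 and PSME2 -0.25. Upper-quartile in place of median-ratio scaling gave TAP1 0.044, TAP2 0.11, TAPBP 0.019, PSMB10 0.027 and PSME1 0.027 for ABPC_EV against PBS.

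With 1 library left out, scaled values for ABPC_EV against PBS ranged from -0.34 to 0.016 for TAP1, from -0.37 to 0.13 for TAP2, from -0.24 to 0.058 for TAPBP, from -0.27 to 0.020 for NLRC5, from -0.26 to 0.16 for PSMB10 and from -0.13 to 0.20 for PSME2. For FBMSC_EV against PBS they ranged from -0.26 to 0.11 for B2M, from -0.12 to 0.33 for PSMB8, from -0.14 to 0.26 for PSMB9 and from -0.15 to 0.26 for PSME1. As deposited, B2M ranged from -0.022 to 0.30 for ABPC_EV against FBMSC_EV. Of the log2 ratio differences, those that changed sign ranged, for ABPC_EV against PBS, from -0.47 to 0.069 (PSMB8 over PSMB5), -0.12 to 0.033 (TAP1 over TAP2), -0.24 to 0.071 (PSME1 over PSME2) and -0.22 to 0.10 (TAPBP over TAP1); for FBMSC_EV against PBS, from -0.15 to 0.39 (PSMB8 over PSMB5); and for ABPC_EV against FBMSC_EV, from -0.57 to 0.023 (PSMB8 over PSMB5), -0.26 to 0.43 (PSMB9 over PSMB6), -0.48 to 0.13 (PSMB10 over PSMB7), -0.053 to 0.12 (TAP1 over TAP2), -0.083 to 0.072 (TAP1 over PSMB9) and -0.043 to 0.52 (TAP1 over B2M). The cause of these changes was not tested.

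Correlations between libraries of different groups were too few to show whether the replicate numbers pair the animals. Of those between same-numbered libraries, 4 of 9 were over 0.1, with a median of 0.07 and a range of -0.25 to 0.28. Of those between different-numbered libraries, 6 of 18 were over 0.1, with a median of -0.06 and a range of -0.42 to 0.35. The replicate block left the counts of the 10 genes at 10 (ABPC_EV against PBS), 0 (FBMSC_EV against PBS) and 0 (ABPC_EV against FBMSC_EV) as deposited, and moved those of all genes to 9682, 44 and 3406. With 3 animals a group, a difference that misses the threshold is not shown to be absent.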
